A study of Mus musculus with 12 samples.

Results

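The 6 genes described here encode the inhibitor of DNA binding proteins Id1, Id2 and Id3 and the E proteins E2A (Tcf3), E2-2 (Tcf4) and HEB (Tcf12). They were taken by name as families, and all 6 were found among the 55487 genes listed in each table. RNA was sequenced from LSK cells (lineage-negative, Sca1-positive, c-Kit-positive), the bone marrow fraction that holds the stem cells and early progenitors of mouse blood. The 12 libraries fall into 3 genotypes of 4: Yy1+/+, the wild type control; Yy1-/-, without the zinc finger transcription factor YY1; and Yy1-/-, Smc3+/-, which also lacks 1 copy of Smc3, a subunit of the cohesin ring. The groups share no further allele or treatment that the labels name, and the driver of the deletion and the age of the mice are not given in the sources used here. The title of the series concerns the control of SMC3 by YY1 in blood stem cells, and the comparisons below ask how Id and E protein mRNA stood in each genotype.

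E proteins are basic helix-loop-helix (bHLH) factors that pair with each other, or with tissue-restricted bHLH partners, and bind short DNA motifs called E-boxes. Id proteins carry the helix-loop-helix but no basic region, so a pair that contains one does not bind DNA, and the balance between both families sets E protein activity. In blood, E proteins drive lymphoid commitment, and Id genes are known targets of bone morphogenetic protein (BMP) signals passed on by SMAD proteins.

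Each library held 38671354 to 69086104 counts. Yy1 itself lay at 33.9 to 41.3 CPM (a library's counts scaled to a common total) in Yy1+/+, at 0.407, 0.996, 5.01 and 12.2 CPM in Yy1-/- replicates 1 to 4, and at 0.772, 0.795, 4.45 and 0.944 CPM in the libraries labelled Yy1-/-, Smc3+/-. Of the deleted libraries, 3 kept over 2 CPM: Yy1-/- replicates 3 and 4 and Yy1-/-, Smc3+/- replicate 3. Smc3 was not lower in the libraries labelled Smc3+/-: it averaged 177 CPM in Yy1+/+, 255 CPM in Yy1-/- and 301 CPM in those libraries. A gene total does not show whether its reads fall in the deleted stretch, so the Smc3 label was not checked by it, and it stands here as a label. Of the sort's own markers, Kit ranged over 422 to 981 CPM in Yy1+/+ and over 100 to 373 CPM in the other 8 libraries, while Ly6a, which encodes Sca1, averaged 187, 251 and 230 CPM in the order of genotypes above, with no change that passed. Of 11 stem cell genes, 9 were lower than in Yy1+/+ in Yy1-/-, where 18.8% of all genes tested were. The libraries labelled Yy1-/-, Smc3+/- had 8 lower, beside 16.7% of all genes. Nothing beyond the labels shows that the libraries came from separate mice, so the p-values measure the spread between these libraries.

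Id2 was the member that rose in both Yy1-deleted genotypes: about 5-fold in Yy1-/- and about 3-fold in the libraries labelled Yy1-/-, Smc3+/-. Tcf3, the most abundant E protein transcript, was lower in Yy1-/- at the threshold of the test. Id1 had higher means in both deleted genotypes without passing the test, Id3 followed single libraries, and Tcf4 and Tcf12 showed no change that passed.

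In Yy1+/+, E protein mRNA outweighed Id mRNA. On the TPM (transcript share) scale, which is per transcript length and so allows genes to be compared, Tcf3 averaged 140 ± 18.6 TPM (SD, n = 4), Tcf4 76.2 ± 5.72, Id2 28.9 ± 10.9, Id1 19.3 ± 14.7, Tcf12 17.3 ± 4.38 and Id3 11.8 ± 20.3. Tcf3 and Tcf4 stood clear of the rest in all 4 wild type libraries, while the last 4 overlapped. In Yy1-/- the order changed: Id2 led with 123 ± 27.9 TPM, above Tcf3 at 85.4 ± 27.3, though the ranges overlapped. In the libraries labelled Yy1-/-, Smc3+/-, Tcf3 (109 ± 21.9 TPM) again had the higher mean, followed by Id2 (74.8 ± 24.6) and Tcf4 (67.9 ± 10.4).

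**Figure D1:**
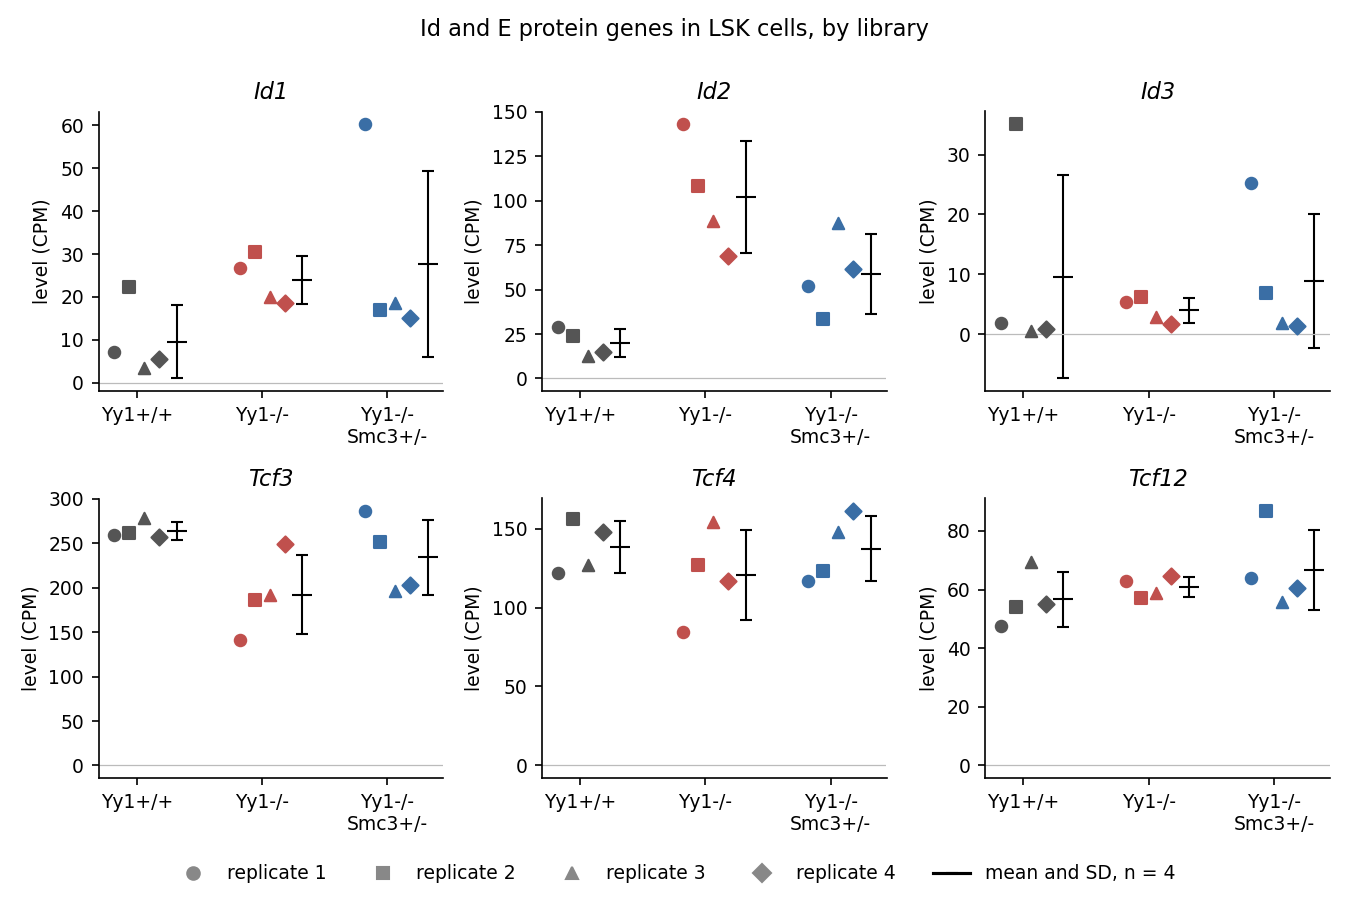
Level of each Id and E protein gene in every library, in CPM on a linear axis; each colour is a genotype, each marker shape a replicate, and the bar beside them the mean with its SD (n = 4). All 8 Yy1-deleted libraries lie above the Yy1+/+ libraries for Id2, while Id3 is set by Yy1+/+ replicate 2 (35.1 CPM) and Yy1-/-, Smc3+/- replicate 1 (25.2 CPM).

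Id2 holds E proteins in check during the formation of innate lymphoid, natural killer and dendritic cells. It spans chr12:25093799-25097140 on the minus strand (GRCm38). The stretch below is shown because Id2 is the member with the firmest change; it is the part of the RefSeq promoter window (250 bases before to 50 after the start, GRCm38.p6) that lies in no annotated exon, 89 bases at chr12:25096254-25096342, minus strand. It lies within the GENCODE span of Id2, since a longer annotated transcript starts further upstream. Capitals mark an SMAD-type GC-rich motif (GGCGCC) and an E-box (CANNTG).
Id2: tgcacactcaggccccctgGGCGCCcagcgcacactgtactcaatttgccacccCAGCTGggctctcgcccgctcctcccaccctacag
Both strands were searched, and the matches do not overlap each other. Of 32851 mouse promoter windows of this length, 11.9% hold GGCGCC and 72.3% hold an E-box, so the E-box is common. The core letters bound by YY1, GCCATNTT, occur in 6.05% of all windows and in none of the windows listed for Id2, Id3, Tcf3 and Tcf12. No window was listed for Id1 or Tcf4.

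Id2 read 28.9, 23.7, 12.6 and 14.7 CPM in Yy1+/+ replicates 1 to 4, and 143, 108, 88.3 and 69.0 CPM in Yy1-/-. The lowest Yy1-/- library was more than double the highest Yy1+/+ library. The log2 fold change was 2.35 ± 0.34 (standard error), a 5.1-fold rise with a 95% interval of 3.07 to 8.4, and the adjusted p was 0.000233 in edgeR's quasi-likelihood test with Benjamini-Hochberg adjustment over 16649 genes. The libraries labelled Yy1-/-, Smc3+/- read 52.0, 33.4, 87.5 and 61.3 CPM, again all above Yy1+/+. There the log2 fold change against Yy1+/+ was 1.55 ± 0.33, 2.93-fold with an interval of 1.79 to 4.79, at an adjusted p of 0.00366 in the same test. Id2 passed in both comparisons under all 21 alternative settings run, with log2 changes of 2.08 to 2.61 in Yy1-/- and 1.24 to 1.78 in the libraries labelled Yy1-/-, Smc3+/-. Bulk RNA cannot tell a change in the mix of cells within the sort from a change in RNA per cell, for Id2 or for any gene below.

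Monocyte genes moved with the genotype as well, and their part in the Id2 difference was not tested. Of 9 monocyte and macrophage genes, 7 rose in Yy1-/-, and the libraries labelled Yy1-/-, Smc3+/- showed 5 that rose. Their summed level was 517 to 1280 CPM in Yy1+/+, 628 to 6480 CPM in Yy1-/- and 729 to 1480 CPM in the libraries labelled Yy1-/-, Smc3+/-, and none of the 9 was at 0 in a whole genotype. Yy1-/- replicates 1 and 2, with 6480 and 4460 CPM of these genes, also had the most Id2. Replicates 3 and 4, with 628 and 918 CPM of these genes, held 88.3 and 69.0 CPM of Id2. Lyz2 makes up much of the sum, at 177 and 348 CPM in replicates 3 and 4 and 342 to 821 CPM in Yy1+/+. The monocyte gene Ms4a6c read 143 and 111 CPM in those replicates and 25.3 to 37.6 CPM in Yy1+/+. Replicates 1 to 4 labelled Yy1-/-, Smc3+/- had monocyte sums of 810, 1480, 1140 and 729 CPM. There replicate 2, with the highest sum, held the least Id2 (33.4 CPM). In the libraries labelled Yy1-/-, Smc3+/-, the calls of Adgre1 and Cd68 were lost in 11 and 6 of 21 alternatives. Residual Yy1 also differed: Yy1-/- replicates 1 and 2 held 0.407 and 0.996 CPM, replicates 3 and 4 5.01 and 12.2 CPM. Among the libraries labelled Yy1-/-, Smc3+/-, replicate 3 held the most Yy1 (4.45 CPM) and the most Id2 (87.5 CPM). The part of residual Yy1 in the Id2 levels was not tested. Lists of cells known to need Id2 or Tcf4 were counted as well. Over all genes, 16.3% rose and 18.8% fell in Yy1-/-, and 13.1% and 16.7% in the libraries labelled Yy1-/-, Smc3+/-. Of 12 plasmacytoid dendritic cell genes tested, 6 rose and 1 fell in Yy1-/-, and 4 rose and 1 fell in the libraries labelled Yy1-/-, Smc3+/-. With the 3 libraries with residual Yy1 left out, 7 and 5 rose in these comparisons. Without Yy1+/+ replicate 2 and Yy1-/- replicate 1 together, 2 rose in place of 6 in Yy1-/-, and the call of Irf8 there was lost in 14 of 21 alternatives, among them the omission of Yy1+/+ replicate 2, 3 or 4, Yy1-/- replicate 1 or 2 or any 1 library labelled Yy1-/-, Smc3+/-. The call of Irf7 was lost without Yy1-/- replicate 1. The list had sums of 343 to 528 CPM in Yy1+/+, 456 to 837 CPM in Yy1-/- and 411 to 590 CPM in the libraries labelled Yy1-/-, Smc3+/-. Tlr9, Cd300c and Klk1 of that list were at 0 in all Yy1+/+ libraries. Of 9 natural killer and innate lymphoid genes, 2 fell in Yy1-/- and 3 in the other deleted genotype, with sums of 74.9 to 151 CPM in Yy1+/+, 64.0 to 78.3 CPM in Yy1-/- and 51.5 to 74.2 CPM in the libraries labelled Yy1-/-, Smc3+/-. None of the 9 rose in either comparison in edgeR, in DESeq2 or at an unadjusted p under 0.05. The Gata3 call in the libraries labelled Yy1-/-, Smc3+/- was lost in 7 of 21 alternatives. Of 6 genes of type 1 conventional dendritic cells, 0 rose and 0 fell in Yy1-/- (0 and 1 in DESeq2, 1 and 1 at an unadjusted p under 0.05), and 1 rose and 1 fell in the libraries labelled Yy1-/-, Smc3+/-. The calls, of Itgae and Zbtb46, were lost in 8 of 20 and 7 of 21 alternatives. Sums of this list were 8.48 to 25.7 CPM in Yy1+/+ and 5.64 to 14.3 CPM in the libraries labelled Yy1-/-, Smc3+/-. Yy1-/- replicates 1 to 4 had 27.4, 29.8, 6.2 and 5.66 CPM. In Yy1-/-, 2 rose and 0 fell without the 3 libraries with residual Yy1. There 0 rose and 2 fell without Yy1+/+ replicate 2 and Yy1-/- replicate 1 together.

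Id1 encodes an inhibitor tied to stem cell self-renewal and, with Id3, to BMP signals (chr2:152736251-152737410, plus strand). Its levels were 7.06, 22.2, 3.45 and 5.41 CPM in Yy1+/+ and 26.8, 30.5, 20.0 and 18.6 CPM in Yy1-/-. Wild type replicate 2 lay inside the Yy1-/- range and the other 3 lay below it. The log2 difference was 1.31 ± 0.55 at an adjusted p of 0.0824 (edgeR). The libraries labelled Yy1-/-, Smc3+/- read 60.3, 17.0, 18.6 and 15 CPM, a log2 difference from Yy1+/+ of 1.52 ± 0.55 at an adjusted p of 0.0536 (edgeR). Both outcomes turn on single libraries. Without Yy1+/+ replicate 2, Id1 rose by 2.17 (adjusted p 0.00645) and 2.38 (adjusted p 0.00466) on the log2 scale. Leaving out replicate 1 of the libraries labelled Yy1-/-, Smc3+/- brought the first under the threshold (adjusted p 0.0422), and leaving out their replicate 4 the second (adjusted p 0.0494). DESeq2 called both as well, at adjusted p of 0.0495 and 0.0237.

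Id3, an inhibitor of E2A in lymphocytes (chr4:136143497-136145755, plus strand), was low except in 2 libraries. Yy1+/+ read 1.9, 35.1, 0.452 and 0.924 CPM, Yy1-/- 5.36, 6.12, 2.92 and 1.62 CPM, and the libraries labelled Yy1-/-, Smc3+/- 25.2, 6.95, 1.91 and 1.39 CPM. The 3 genotypes overlapped throughout. The log2 differences from Yy1+/+ were -1.3 ± 1.15 (adjusted p 0.404) in Yy1-/- and -0.14 ± 1.07 (adjusted p 0.935) in the libraries labelled Yy1-/-, Smc3+/-, both by edgeR. Their sign rests on Yy1+/+ replicate 2: without that library they were 1.84 (adjusted p 0.199) and 3.0 (adjusted p 0.0423).

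In each genotype, the library with the most Id1 and Id3 was also the one with the highest sum of immediate early genes, which are genes that respond within minutes to stimulation or cell handling. The 9 such genes summed to 7890, 18200, 574 and 5160 CPM in Yy1+/+ replicates 1 to 4, to 513, 3240, 1180 and 471 CPM in Yy1-/-, and to 6610, 2500, 976 and 1700 CPM in the libraries labelled Yy1-/-, Smc3+/-. The highest sum fell in the library with the most Id3, Yy1+/+ replicate 2, and the highest sum among the libraries labelled Yy1-/-, Smc3+/- fell in replicate 1, which held the most Id1. Within Yy1+/+, Id1 and Id3 ranked the libraries in the same order as these sums, and replicate 3 had the lowest sum and the least Id1, Id2 and Id3. In Yy1-/-, replicate 2 had the highest sum and the most Id1 and Id3. Below the highest library the orders differed in both deleted genotypes. Yy1-/- replicate 1, with a sum of 513 CPM, held 26.8 CPM of Id1, and replicate 3, with 1180 CPM, held 20.0 CPM. The part of these genes in the Id1 and Id3 differences was not tested. The fourth family gene, Id4, had 0 to 19 counts per library, too few for the filter on low counts, and was not tested.

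**Figure D2:**
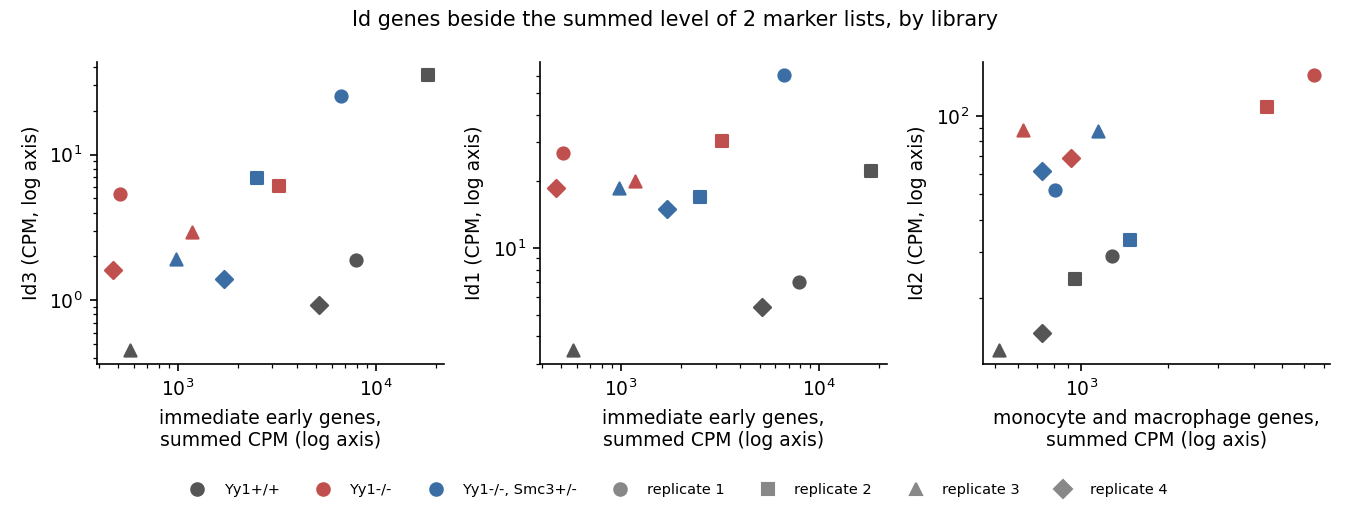
Id3, Id1 and Id2 (CPM, vertical log axes) against the summed CPM of 9 immediate early genes or 9 monocyte and macrophage genes (horizontal log axes); each point is 1 library, coloured by genotype, with the marker shape giving the replicate. Yy1+/+ replicate 2 is at the far right for immediate early genes (18200 CPM) and at the top for Id3, and Yy1-/- replicates 1 and 2 are highest for both the monocyte sum (6480 and 4460 CPM) and Id2. Among the libraries labelled Yy1-/-, Smc3+/-, replicate 2 has the highest monocyte sum (1480 CPM) and the least Id2 (33.4 CPM).

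Tcf3 gives rise to the E12 and E47 forms of E2A, needed for early B and T lineage steps (chr10:80409514-80433647, minus strand, GRCm38). The 238 bases just before its annotated start, at chr10:80433648-80433885 on the minus strand of GRCm38.p6 (RefSeq), are shown because Tcf3 is the E protein gene nearest to a change. Capitals mark the E-box.
Tcf3: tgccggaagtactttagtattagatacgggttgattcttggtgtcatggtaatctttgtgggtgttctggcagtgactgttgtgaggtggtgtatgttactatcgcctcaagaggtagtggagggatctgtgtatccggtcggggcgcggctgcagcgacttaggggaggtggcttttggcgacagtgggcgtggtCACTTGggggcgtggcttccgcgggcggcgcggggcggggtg
Neither GGCGCC nor GCCATNTT occurs in this stretch on either strand.

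Tcf3 read 259, 261, 278 and 257 CPM in Yy1+/+ and 141, 186, 192 and 249 CPM in Yy1-/-. The wild type libraries lay close together, and the highest Yy1-/- library, replicate 4, came just under the lowest of them. The log2 fold change was -0.46 ± 0.17, a ratio of 0.727 with a 95% interval of 0.566 to 0.933, at an adjusted p of 0.0486 in edgeR's quasi-likelihood test. This call is at the threshold and not firm: with edgeR's earlier form of the same statistic the adjusted p was 0.0572, it was 0.0639 when only both genotypes were fitted, and the call was lost in 11 of 21 alternatives (adjusted p 0.0107 to 0.102 over all 21). Among these were the omission of any 1 Yy1+/+ library, of Yy1-/- replicate 1, 2 or 3, and of Yy1-/-, Smc3+/- replicate 4 (adjusted p 0.057 to 0.102). Per length the groups overlapped, at 116 to 161 TPM in Yy1+/+ and 55.0 to 121 TPM in Yy1-/-. The libraries labelled Yy1-/-, Smc3+/- read 286, 251, 196 and 203 CPM and straddled the wild type range, with a log2 difference from Yy1+/+ of -0.17 (95% interval -0.53 to 0.19, adjusted p 0.464, edgeR). Across Yy1-/- replicates, Tcf3 rose in the order of residual Yy1 (0.407, 0.996, 5.01 and 12.2 CPM). Among the libraries labelled Yy1-/-, Smc3+/-, replicate 3 held the most Yy1 (4.45 CPM) and the least Tcf3. The part of residual Yy1 in the Tcf3 levels was not tested.

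Tcf4, the E protein that maintains plasmacytoid dendritic cells, lies on chr18 between 69343356 and 69689079. It read 122, 156, 127 and 148 CPM in Yy1+/+, 84.6, 127, 154 and 117 CPM in Yy1-/-, and 117, 123, 148 and 161 CPM in the libraries labelled Yy1-/-, Smc3+/-. The groups overlapped. Log2 differences from Yy1+/+ were -0.2 (interval -0.57 to 0.18) and -0.01 (interval -0.39 to 0.37).

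Tcf12, which pairs with E2A in developing T cells, lies at chr9:71842688-72111871 on the minus strand. Its levels were 47.5, 54.2, 69.5 and 55.2 CPM in Yy1+/+, 62.8, 57.1, 58.7 and 64.7 CPM in Yy1-/-, and 63.9, 86.7, 55.6 and 60.4 CPM in the libraries labelled Yy1-/-, Smc3+/-. Here too the groups overlapped, and log2 differences from Yy1+/+ were 0.1 (interval -0.24 to 0.45) and 0.24 (interval -0.11 to 0.58).

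**Figure D3:**
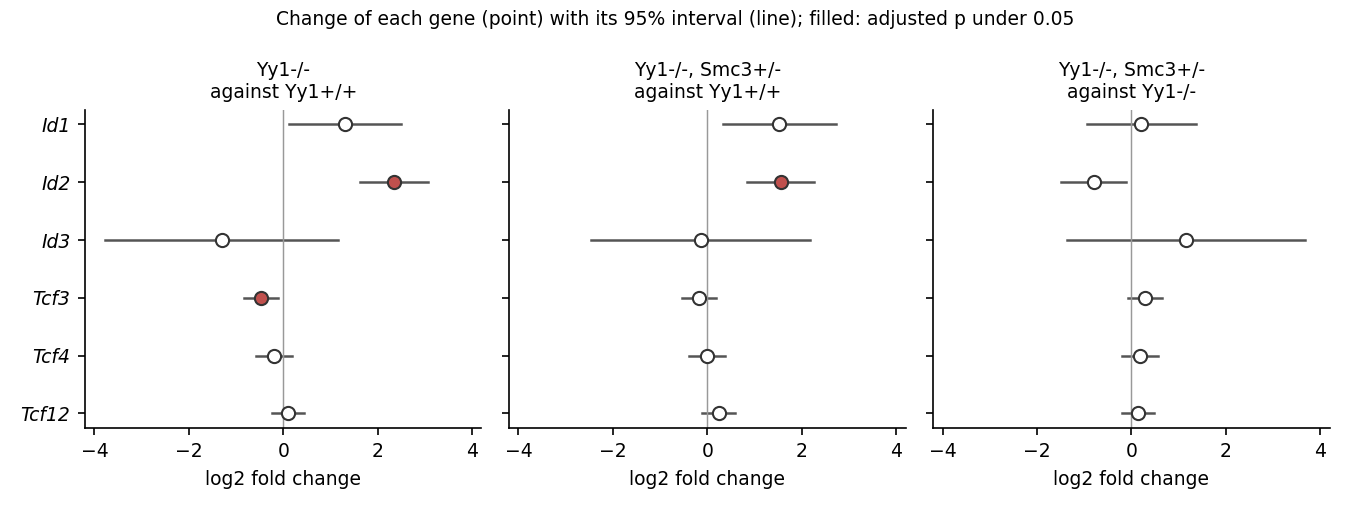
Log2 fold change of each gene (point) with its 95% interval (line) in the 3 comparisons, from the fit over 12 libraries; filled points have an adjusted p under 0.05. Id2 stands to the right of 0 in both comparisons with Yy1+/+, Tcf3 is filled in Yy1-/- against Yy1+/+ at an adjusted p of 0.0486, and Id3 has the widest intervals.

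In Yy1-/- against Yy1+/+, 1 of the 6 genes rose (Id2) and 1 fell (Tcf3, at the threshold), where 35.2% of all 16649 genes tested were called, 16.3% higher and 18.8% lower. At an unadjusted p under 0.05, 2 members were higher and 1 lower, as in DESeq2, beside 21.7% and 23.6% of all genes at that unadjusted p. Groups without overlap, as seen for Id2 and Tcf3, occurred in 13.4% of all genes upward and 17.5% downward. With the libraries labelled Yy1-/-, Smc3+/- set against Yy1+/+, 1 of 6 rose (Id2) and 0 fell in edgeR, where 29.9% of all genes tested were called, 13.1% higher and 16.7% lower. Groups like those of Id2, without overlap, made up 14.7% of all genes upward and 17.6% downward. At an unadjusted p under 0.05, 2 members were higher and 0 lower, as in DESeq2, where 19.7% of all genes were higher and 21.6% lower at that unadjusted p. The shares of members called are near those of all genes, and the median log2 change over the 6 members was -0.05 and 0.11, beside 0.006 and 0.02 over all genes. Both comparisons share the Yy1+/+ libraries.

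Between the deleted genotypes no member passed. In edgeR 0 of 6 were called, where 0.036% of all genes were, with 1 lower (Id2) at an unadjusted p under 0.05, as were 3.77% of all genes, and 0 in DESeq2. Id2 was lower in the libraries labelled Yy1-/-, Smc3+/- than in Yy1-/- by a log2 difference of -0.8 (interval -1.49 to -0.11), but the adjusted p was 0.756 and replicate 3, at 87.5 CPM, lay inside the Yy1-/- range. For Id1 the difference was 0.21 (interval -0.94 to 1.37), for Id3 1.16 (interval -1.36 to 3.67) and for Tcf3 0.28 (interval -0.08 to 0.64). These intervals are wide, so the missed thresholds do not show that both deleted genotypes hold the same levels.

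The balance of both families was described as summed Id1, Id2 and Id3 TPM over summed Tcf3, Tcf4 and Tcf12 TPM, with no test. The ratio was 0.277, 0.558, 0.111 and 0.146 in Yy1+/+, 1.91, 1.28, 0.842 and 0.65 in Yy1-/-, and 1.04, 0.412, 0.812 and 0.587 in the libraries labelled Yy1-/-, Smc3+/-. Every Yy1-/- library lay above every Yy1+/+ library, and 3 of the 4 labelled Yy1-/-, Smc3+/- did. Means were 0.273 ± 0.203, 1.17 ± 0.56 and 0.714 ± 0.274 (SD, n = 4). Without Yy1+/+ replicate 2, whose Id3 made up 37.5% of its Id sum, the wild type mean was 0.178. Summed Id mRNA averaged 59.9, 170 and 138 TPM, and summed E protein mRNA 233, 159 and 195 TPM, in the order given. The E protein sums overlapped, at 202 to 264 TPM in Yy1+/+, 105 to 203 TPM in Yy1-/- and 173 to 218 TPM in the libraries labelled Yy1-/-, Smc3+/-. On the log2(TPM + 1) scale the median of all genes also moved, by -0.177 in Yy1-/- and by -0.111 in the libraries labelled Yy1-/-, Smc3+/-. Id2 supplied 69.2% to 75.7% of the Id sum in Yy1-/-, while Id1 led in replicate 1 of the libraries labelled Yy1-/-, Smc3+/- with 53.9%. A ratio of mRNA says nothing of protein levels or of how many pairs form.

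**Figure D4:**
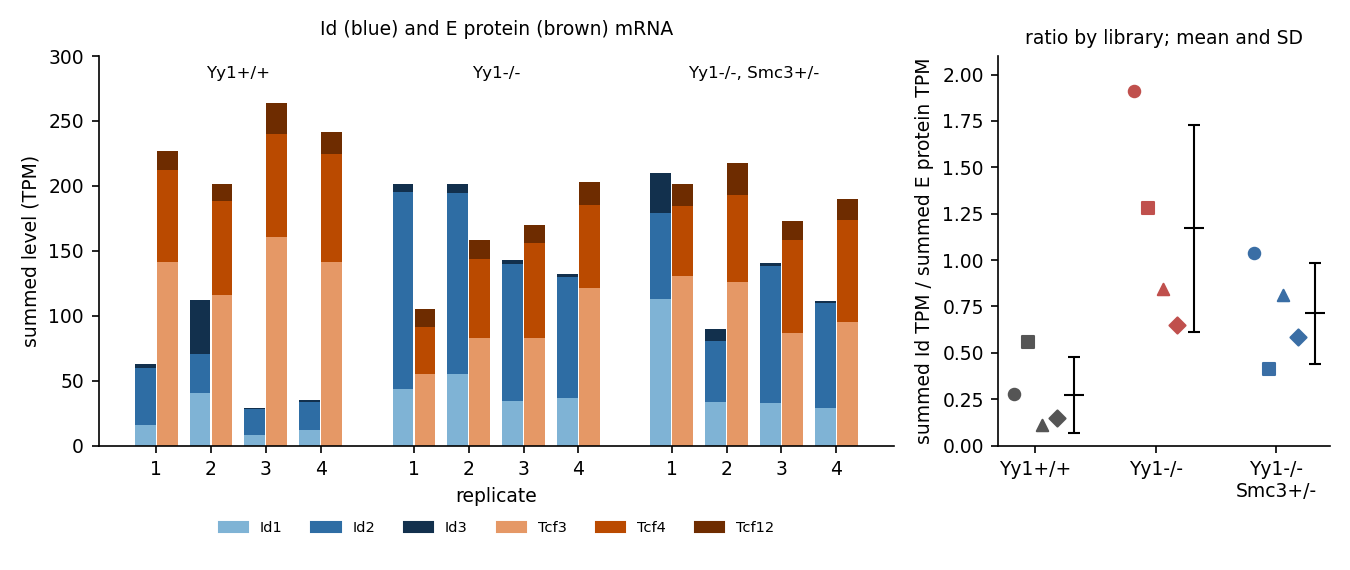
Left, stacked TPM of the Id genes (blue bars) and E protein genes (brown bars) in each library; right, their ratio by library, with mean and SD (n = 4) and marker shapes for replicates 1 to 4 as circle, square, triangle and diamond. Id bars are shorter than E protein bars in all 4 Yy1+/+ libraries, and the ratio passes 1 in Yy1-/- replicates 1 and 2 (1.91 and 1.28) and in Yy1-/-, Smc3+/- replicate 1 (1.04).

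Upstream of the Id genes lie BMP and SMAD genes. Of 21 listed, 19 were tested: 1 rose and 7 fell in Yy1-/-, and 0 rose and 5 fell in the libraries labelled Yy1-/-, Smc3+/- (1 higher in DESeq2 and at an unadjusted p under 0.05). Over all genes, 16.3% rose and 18.8% fell in the first comparison and 13.1% and 16.7% in the second. The median log2 change of the list was -0.47 and -0.21. Bmpr1b and Smad9, not tested, were at 0 in all 12 libraries. Those that fell included receptors, feedback inhibitors and 1 ligand, so they do not act in 1 direction on the pathway. Endoglin (Eng), a co-receptor, averaged 119 CPM in Yy1+/+ and 21.2 CPM in Yy1-/-, a log2 change of -2.49 ± 0.33 (adjusted p 0.000147). The activin receptor Acvr2b fell by 2.83 ± 0.35 (adjusted p 0.0001) and the inhibitory SMAD gene Smad7 by 1.9 ± 0.27 (adjusted p 0.000239) on the log2 scale. In the libraries labelled Yy1-/-, Smc3+/- Eng changed by -2.56 ± 0.34, Acvr2b by -2.6 ± 0.35 and Smad6, also an inhibitory SMAD gene, by -2.55 ± 0.37 (adjusted p 0.000142, 0.000181 and 0.000312). Of the 7 calls in Yy1-/-, those of Bambi, Smurf1 and Bmp4 were lost in 4, 5 and 10 alternatives, each with single libraries left out: Yy1+/+ 2 or Yy1-/- 2 for Bambi; Yy1+/+ 1, 3 or 4 or Yy1-/- 2 or 3 for Smurf1; and Yy1+/+ 2, Yy1-/- 1, 2 or 4 or Yy1-/-, Smc3+/- 4 for Bmp4. The gene that rose in Yy1-/- was Acvrl1, a type I receptor, from 0.653 to 14.9 CPM. The BMP signal transducers Smad1, Smad5 and Smad4 had log2 differences between -0.13 and -0.05 in Yy1-/- and did not pass.

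Among tissue-restricted bHLH partners of E proteins, 6 of 18 were tested, and 0 rose and 2 fell in each comparison with Yy1+/+, with 0 higher also in DESeq2 and at an unadjusted p under 0.05. Of all genes, 16.3% rose and 18.8% fell in Yy1-/-, and 13.1% and 16.7% in the libraries labelled Yy1-/-, Smc3+/-. Tcf15, a bHLH gene expressed in quiescent stem cells, averaged 13.8 CPM in Yy1+/+, 0.455 CPM in Yy1-/- and 0.301 CPM in the libraries labelled Yy1-/-, Smc3+/- (log2 changes -4.93 ± 0.46 and -5.45 ± 0.49, adjusted p 7.95e-06 and 6.94e-06). Tal1, the stem cell and erythroid partner of E proteins, averaged 26.6, 11.7 and 12.6 CPM (log2 changes -1.18 ± 0.2 and -1.08 ± 0.2, adjusted p 0.000809 and 0.00167). Of 6 erythroid genes, 1 fell in Yy1-/- (Gata1, a call lost in 7 of 21 alternatives, among them the omission of Yy1+/+ replicate 1, 3 or 4 or Yy1-/- replicate 1 or 2) and 2 fell in the libraries labelled Yy1-/-, Smc3+/- (Gata1 and Epor). Their sums, of which Car1 makes up much, were 420 to 977 CPM in Yy1+/+, 15.2 to 404 CPM in Yy1-/- and 8.79 to 230 CPM in the libraries labelled Yy1-/-, Smc3+/-. Hba-a1 had a higher mean in both, without passing. Car1 read 0, 0, 201 and 39.7 CPM in Yy1-/- replicates 1 to 4. With the 3 libraries with residual Yy1 left out, 4 of the 6 genes fell in Yy1-/- against Yy1+/+. The other deleted genotype then had 5 lower. Without Yy1+/+ replicate 2 and Yy1-/- replicate 1 together, these counts were 0 and 2. The erythroid genes' part in the Tal1 difference was not tested.

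All 8 genes of the LIM-domain bridging complex, which links TAL1 and E proteins to other factors, were tested: 1 rose and 2 fell in each comparison. Lmo2, its central adaptor in stem cells, averaged 826 CPM in Yy1+/+, 376 CPM in Yy1-/- and 372 CPM in the libraries labelled Yy1-/-, Smc3+/- (log2 changes -1.14 ± 0.11 and -1.15 ± 0.11, adjusted p 2.48e-05 and 2.41e-05). The related Lmo1 rose from 5.27 CPM to 29.6 and 23.2 CPM (log2 changes 2.48 ± 0.22 and 2.13 ± 0.22, adjusted p 1.02e-05 and 2.92e-05). Ssbp3, which stabilises the bridging protein LDB1, fell by 0.89 ± 0.18 (adjusted p 0.00206) and by 0.5 ± 0.17 (adjusted p 0.0462) on the log2 scale. The second of these calls was lost in 11 of 21 alternatives, among them the omission of Yy1+/+ replicate 2 or 3, Yy1-/- replicate 2 or any 1 library labelled Yy1-/-, Smc3+/-. Ldb1 itself did not pass, at log2 differences of -0.32 (edgeR adjusted p 0.0541) and -0.09. Beside the counts of this list, 16.3% of all genes rose and 18.8% fell in Yy1-/-. In the libraries labelled Yy1-/-, Smc3+/- 13.1% rose and 16.7% fell.

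Of 7 E protein coregulators, 0 rose and 3 fell in Yy1-/-, and 0 rose and 2 fell in the libraries labelled Yy1-/-, Smc3+/-, with 0 higher also in DESeq2 and at an unadjusted p under 0.05. All that fell are ETO family genes, whose products repress E protein targets. Cbfa2t3 averaged 137, 57.5 and 73.0 CPM in Yy1+/+, Yy1-/- and the libraries labelled Yy1-/-, Smc3+/- (log2 changes -1.25 ± 0.28, adjusted p 0.00425, and -0.9 ± 0.28, adjusted p 0.0266). The second Cbfa2t3 call was lost in 8 of 21 alternatives, among them the omission of Yy1+/+ replicate 1, 3 or 4 or Yy1-/-, Smc3+/- replicate 2, 3 or 4. Cbfa2t2 fell by 0.69 ± 0.18 on the log2 scale in Yy1-/- (adjusted p 0.00893). Runx1t1 averaged 1.99 CPM in Yy1+/+ and had 0 counts in the 4 libraries labelled Yy1-/-, Smc3+/-, at least 111-fold lower against a floor of 3 counts over that group. The acetyltransferase genes Ep300, Crebbp, Kat2a and Kat2b did not pass in either comparison. Beside the counts of the coregulators, 16.3% of all genes rose and 18.8% fell in Yy1-/-. In the libraries labelled Yy1-/-, Smc3+/- 13.1% rose and 16.7% fell.

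Of 4 genes acting on Id protein turnover, 1 rose in each comparison: Cops5, a subunit of the COP9 signalosome, averaged 95.7, 188 and 171 CPM (log2 changes 0.98 ± 0.15 and 0.84 ± 0.15, adjusted p 0.000342 and 0.00104). Usp1, the deubiquitinase known to stabilise Id proteins, had log2 differences of 0.38 (adjusted p 0.0966) and 0.41 (adjusted p 0.0823), both by edgeR. Over all genes 16.3% rose in the first comparison and 13.1% in the second.

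Downstream, of 16 E2A-linked lymphoid genes tested of 19 listed, 2 rose and 2 fell in Yy1-/-, and 4 rose and 0 fell in the libraries labelled Yy1-/-, Smc3+/-. In the second comparison DESeq2 called 4 higher and 0 lower, and 7 were higher and 1 lower at an unadjusted p under 0.05. Over all genes, edgeR called 16.3% higher and 18.8% lower in the first comparison, and 13.1% and 16.7% in the second. T cell markers moved too, and their part in the lymphoid differences was not tested: of 7, 5 rose and 1 fell in each comparison, with medians of 3.76 and 3.21 on the log2 scale. The T cell receptor complex genes Cd3e, Cd3d, Cd3g, Trac and Trbc2 rose by 3.3 to 6.12 in Yy1-/- and by 2.36 to 5.6 in the libraries labelled Yy1-/-, Smc3+/-, where the Trbc2 call was lost without replicate 3 (adjusted p 0.0573), while Lat fell. Summed levels of the 7 were 57.8 to 127 CPM in Yy1+/+, 34.4 to 91.9 CPM in Yy1-/- and 57.5 to 93.5 CPM in the libraries labelled Yy1-/-, Smc3+/-, and none was at 0 in a whole genotype. Lck and Lat make up much of these sums, at means of 42.9 and 46.6 CPM in Yy1+/+ and 21.5 and 15.2 CPM in Yy1-/-. The 5 receptor complex genes were low: they averaged 0.0273 to 1.09 CPM in Yy1+/+ and 2.23 to 11.2 CPM in Yy1-/-. In the libraries labelled Yy1-/-, Smc3+/- they averaged 1.57 to 5.9 CPM. Il7r, the interleukin-7 receptor of lymphoid progenitors, averaged 1.78 CPM in Yy1+/+, 14.3 CPM in Yy1-/- and 17.8 CPM in the libraries labelled Yy1-/-, Smc3+/- (log2 changes 3.01 ± 0.49 and 3.33 ± 0.49, adjusted p 0.000545 and 0.000307). Rag2, a recombinase gene, averaged 3.07 CPM in Yy1+/+ and 0.122 CPM in Yy1-/- (log2 change -4.64 ± 0.95, adjusted p 0.00141). Dntt, the template-independent polymerase of lymphoid progenitors, averaged 180 and 36.0 CPM there (log2 change -2.32 ± 0.57, adjusted p 0.00721). In the libraries labelled Yy1-/-, Smc3+/-, Dntt averaged 83.7 CPM and Rag2 1.62 CPM, and neither passed against Yy1+/+ (adjusted p 0.148 and 0.257).

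The B cell coactivator gene Pou2af1 averaged 9.43, 23.5 and 37.5 CPM (log2 changes 1.32 ± 0.45, adjusted p 0.0341, and 1.99 ± 0.45, adjusted p 0.00507), and the first call was lost in 10 of 21 alternatives, among them the omission of Yy1+/+ replicate 1, 2 or 4 or Yy1-/- replicate 2 or 3. Ebf1, the B lineage factor acting with E2A, averaged 0.347 CPM in Yy1+/+ and 2.24 CPM in the libraries labelled Yy1-/-, Smc3+/- (log2 change 2.76 ± 0.69, adjusted p 0.00869, or 0.083 with edgeR's earlier statistic). The B cell receptor gene Cd79a averaged 8.92 and 20.3 CPM (log2 change 1.17 ± 0.36, adjusted p 0.0277), a call lost in 6 of 21 alternatives, among them the omission of Yy1+/+ replicate 3 or 4 or Yy1-/-, Smc3+/- replicate 3 or 4. Sums of the B cell marker list were 57.5 to 85.9 CPM in Yy1+/+ and 54.5 to 80.1 CPM in the libraries labelled Yy1-/-, Smc3+/-. Cd79b makes up much of them, at 53.1 to 73.8 CPM and 41.5 to 50.1 CPM. The list shares Cd79a and 2 further genes with the lymphoid list. In edgeR 0 genes of the 6 lists around the Id and E proteins were called between the deleted genotypes. Of the 16 tested genes of the E2A-linked list, 5 were higher there at an unadjusted p under 0.05, beside 2.7% of all genes. In DESeq2 1 of them was higher.

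**Figure D5:**
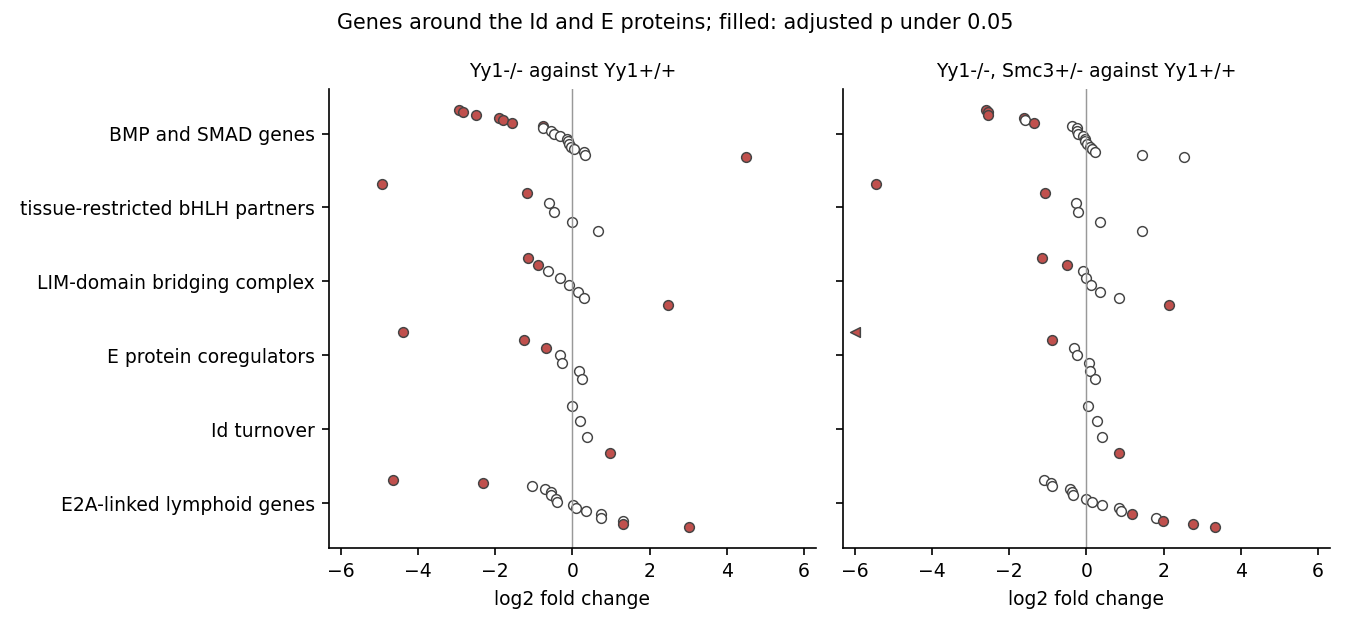
Log2 fold change of every tested gene of the 6 lists around the Id and E proteins, each point a gene, in both comparisons with Yy1+/+; filled points have an adjusted p under 0.05, and the triangle at the left edge is Runx1t1, which had 0 counts in the libraries labelled Yy1-/-, Smc3+/- and lies beyond the axis. Filled points lie mostly left of 0 for the first 4 lists and on both sides for the E2A-linked genes in Yy1-/-.

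The genes most like each Id gene were sought among 9776 genes of at least 5 CPM, by the root mean square difference of mean-centred log2 CPM profiles over the 12 libraries. Nearest to Id2 were Ap3s1 (difference 0.327), Anxa3 (0.333) and Anxa2 (0.34), which code for a vesicle adaptor subunit and for membrane-binding annexins. All 3 were higher in both deleted genotypes, with log2 changes of 2.04, 2.34 and 2.04 in Yy1-/- and 1.84, 1.95 and 1.41 in the libraries labelled Yy1-/-, Smc3+/-. They were chosen by likeness to Id2 over these same libraries, so their rise follows from the choice and is not a separate result. Nearest to Id1 were Ciart (0.554), Perp (0.557) and Cdkn1a (0.56), a weaker likeness, and of these Perp passed in both comparisons with Yy1+/+ (log2 changes 1.93 and 1.4). Nearest to Id3 were Plk3 (1.08), Trib1 (1.08) and Socs3 (1.1), none close and none passing in either comparison. The E protein genes varied too little over the libraries, with an SD of 0.216 to 0.304 on the log2 scale, for this comparison.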

How the data were processed

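RNA of sorted LSK cells was made into libraries with a SMART-Seq v4 ultra-low input kit, per the labels' protocols. The submitters' processing notes name STAR 2.5.2b, RSEM 1.3.0 and mm10. The deposited tables, 1 per library, hold RSEM expected counts, TPM, FPKM and effective lengths per gene, as the authors made them. Strand settings are not given in the sources used here. Of 55487 gene identifiers, 55094 matched GENCODE M21 with their version and 300 without it. SMART-Seq amplifies without molecular identifiers, so 1 molecule can be counted more than once.

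Expected counts were rounded and tested with edgeR 4.0.16 (R 4.3.3): TMM scaling, at least 10 counts by its expression filter (15 in total), 1 fit of 12 libraries, Benjamini-Hochberg adjustment over 16649 genes, calls at an adjusted p under 0.05. CPM are scaled by TMM. The quasi-likelihood statistic was settled after values had been seen: the default form of this edgeR version was run first and gave Tcf3 an adjusted p of 0.0572. Several settings were then compared with member results in view, and the newer form was taken because it matches an earlier analysis of these data; it gives 0.0486. Both are reported. The script was tested on simulated data.

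Alternatives were DESeq2 1.42.0, RLE scaling, other filters, 2-genotype fits, limma 3.58.1 on log2(TPM + 1), and leaving out each library. FPKM, from the deposited tables, served only as an alternative for the ratio. The members and lists were chosen with earlier results of these data known. Named genes are the members, Id4, Yy1 and Smc3, up to 3 called genes of each list with the smallest p per comparison, and the 3 genes most like each member whose log2 SD is at least 0.5. Some of the 3 genes of each cell type list with the highest mean CPM were named as well. Named besides, for their part in a list's count or for cell type checks, were Acvrl1, Bambi, Smurf1, Bmp4, Bmpr1b, Smad9, Smad1, Smad5, Smad4, Ldb1, Usp1, the acetyltransferase genes, Kit, Ly6a, Cd79a, Tlr9, Cd300c, Klk1, Cd3d, Cd3e, Trbc2, Adgre1 and Hba-a1, all after their values were seen. Replicates are numbered in accession order.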

Additional observations from a re-analysis of the deposited data

Results flagged for a closer look

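In 21 groups of 4 libraries (6 genes and the Id to E protein ratio, in 3 genotypes), 2 held a library whose gap to its nearest neighbour passed Dixon's critical value. Chance gives such a gap in about 1 of 20 groups. Among the libraries labelled Yy1-/-, Smc3+/-, replicate 1 held 60.3 CPM of Id1, while the others held 15 to 18.6 CPM; its immediate early genes summed to 6610 CPM and theirs to 976 to 2500 CPM. Among the Yy1+/+ libraries, replicate 2 held 35.1 CPM of Id3, while the others held 0.452 to 1.9 CPM; its immediate early genes summed to 18200 CPM and theirs to 574 to 7890 CPM. Whether the immediate early genes have a part in either value was not tested.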

How the results depend on the processing

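Of the members, Id2 kept its direction and its call in both comparisons with Yy1+/+ under all 21 alternatives. The count of members higher in Yy1-/- went from 1 to 2 with DESeq2 and without Yy1+/+ replicate 2 and Yy1-/- replicate 1 together, Id1 being added; leaving out single libraries gave 1 to 2. The count lower went from 1 to 0, Tcf3 being lost, with the 2 genotypes alone, with edgeR's earlier statistic and without those 2 libraries together; single omissions gave 0 to 1. Against Yy1+/+, the count higher in the libraries labelled Yy1-/-, Smc3+/- was 2 with DESeq2, 3 without those 2 libraries together and 1 to 3 over single omissions. Id3 in that comparison turned from -0.14 to 3.0 without Yy1+/+ replicate 2 (adjusted p 0.0423) and to 2.95 without both (adjusted p 0.05), and ranged over -1.52 to 3.0 over single omissions. The cause was not tested.

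Over all genes, limma on log2(TPM + 1) called 1369 higher in place of 2722 in Yy1-/- and 1229 in place of 2189 in the libraries labelled Yy1-/-, Smc3+/-; on that scale the median of all genes moved to -0.177 and -0.111. Single omissions gave 2168 to 2815 higher and 2740 to 3213 lower in Yy1-/-, and 1558 to 2267 higher and 2204 to 3127 lower in the libraries labelled Yy1-/-, Smc3+/-. Between the deleted genotypes, 6 genes were higher and 0 lower in edgeR (449 and 627 at an unadjusted p under 0.05), against 46 and 29 in DESeq2, 34 and 277 without the 3 libraries with residual Yy1, and 1 lower with the earlier statistic; single omissions gave 5 to 7 higher.

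The mean ratio of Id to E protein TPM ranged over 0.178 to 0.327 in Yy1+/+, 0.923 to 1.34 in Yy1-/- and 0.604 to 0.814 in the libraries labelled Yy1-/-, Smc3+/- over single omissions. Without the 3 libraries with residual Yy1, the BMP and SMAD genes counted 1 higher and 6 lower in Yy1-/-, and the E2A-linked genes 3 higher in place of 4 in the libraries labelled Yy1-/-, Smc3+/-. The omission of libraries together and the earlier statistic were chosen after seeing the data. No paired analysis was possible because the labels give no replicate numbers. Id4, with 0 to 19 counts per library, and Id3, with SDs above its means in 2 genotypes, have the least precise values.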
